A study of Mus musculus with 24 samples.

Results

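The 10 genes described here encode the machinery of MHC class II antigen presentation: the classical chains H2-Aa, H2-Ab1 and H2-Eb1, the invariant chain Cd74, the transactivator Ciita, the peptide-loading chains H2-DMa, H2-DMb1 and H2-DMb2, and the loading regulators H2-Oa and H2-Ob. The files list them as H2-AA, H2-AB1, H2-EB1, CD74, CIITA, H2-DMA, H2-DMB1, H2-DMB2, H2-OA and H2-OB. They were taken by name from the 18097 targets of a bead array table of mouse colon RNA, and all 10 lay above the level at which a target was tested, with 9048 targets tested in all. H2-Oa did so narrowly, with a mean of 6.58 against a level of 6.54. It lay below that level in 5 of 6 arrays after each drug and in none of wild type, so it passed through the groups where it was high, and its p-values are no support. The 24 arrays came from C57Bl/6 mice that were wild type (4 arrays) or APCMin/+ (20 arrays, called ApcMin below), carriers of a mutant Apc allele that makes intestinal tumours likely. Mice were dosed by mouth once a day for 7 days from 6 weeks of age, and colon was taken at 14 weeks, which was 7 weeks after the last dose. Wild-type and 8 of the ApcMin arrays followed vehicle (0.05% DMSO and 0.95% carboxymethylcellulose). Naproxen, an inhibitor of the cyclooxygenases, was given to ApcMin mice at 10 mg/kg (6 arrays). ATB-346, a hydrogen sulfide-releasing anti-inflammatory drug, was given to ApcMin mice at 14.5 mg/kg (6 arrays). The doses thus differed by weight, and molar doses were not compared here. Whole colon RNA was measured, and the labels neither separate tumour from normal tissue nor say that each array came from its own animal, so a p-value here speaks of the spread among these samples, which may be technical.

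MHC class II molecules are pairs of an alpha and a beta chain that carry peptides of endocytosed proteins to the cell surface, where CD4+ T cells read them. The new pair is held by the invariant chain, moves to endosomes, loses most of that chain to proteases, and exchanges the remaining fragment for peptide with the help of DM, which DO restrains. B cells, dendritic cells and macrophages carry the pathway at rest, and intestinal epithelium can carry it too, while interferon gamma raises it in many cells through Ciita. In whole colon RNA, fewer cells of such a type and less RNA per cell cannot be told apart. The C57BL/6 strain makes no H2-Ea chain, and the H2-Ea probe stayed between 5.72 and 6.03 on all arrays, near the lowest normalized log2 signal on any array, 5.65.

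Class II genes share a promoter module, in which an X box bound by the RFX complex lies upstream of a Y box, an inverted CCAAT sequence bound by NF-Y, and Ciita acts through the proteins bound there. Promoters of 7 of the 10 genes were found in the RefSeq table (build GRCm38.p6, 250 bases before to 50 after the start of each gene), and 80 bases around the Y box position are shown for the 6 with that sequence near the start, because these genes varied together within the groups. Capitals mark ATTGG, the Y box core CCAAT read from the other strand, and, upstream of it, exact matches to a fixed X box pattern. Inexact matches were not searched for, so lower case does not mean that an X box is absent.
H2-Aa: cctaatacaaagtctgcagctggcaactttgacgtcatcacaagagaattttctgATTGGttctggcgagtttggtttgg
H2-Eb1: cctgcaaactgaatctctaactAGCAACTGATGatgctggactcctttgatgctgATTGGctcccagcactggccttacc
H2-DMb1: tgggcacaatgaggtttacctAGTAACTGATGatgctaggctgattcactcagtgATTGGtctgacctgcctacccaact
H2-DMb2: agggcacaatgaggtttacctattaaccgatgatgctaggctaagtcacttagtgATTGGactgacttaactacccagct
H2-Oa: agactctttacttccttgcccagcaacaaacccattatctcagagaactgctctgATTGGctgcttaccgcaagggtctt
H2-Ob: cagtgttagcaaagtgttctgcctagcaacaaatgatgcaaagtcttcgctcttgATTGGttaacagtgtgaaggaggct
The windows are chr17:34287847-34287926 on the minus strand for H2-Aa, and on the plus strand chr17:34305753-34305832 for H2-Eb1, chr17:34153075-34153154 for H2-DMb1, chr17:34145104-34145183 for H2-DMb2, chr17:34092281-34092360 for H2-Oa and chr17:34238793-34238872 for H2-Ob. ATTGG lay between 43 (H2-Oa) and 90 (H2-DMb2) bases before the start. On either strand, CCAAT stood in the promoters of all 7 genes, against 37.4% of the 32851 promoters of the table. The X box pattern stood in 3 of the 7 (H2-Eb1, H2-DMb1 and H2-Oa), against 0.968% of promoters. In H2-Oa it lay outside the window shown, at -141 from the start, with ATTGG at -43. In H2-Eb1 it lay at -92 with ATTGG at -59, and in H2-DMb1 at -95 and -61. The H2-Oa match thus lay farther from ATTGG, and whether it is the X box of that promoter was not tested. In H2-DMb2 and H2-Ob a stretch upstream of ATTGG misses the pattern by a single base and was not counted. AGNAACNG, a shorter form, stood in 3 of the 7, against 17.4%. In H2-Eb1 and H2-DMb1 it overlaps the match to the X box pattern, and in H2-Oa it lies on the other strand, apart from that match. TGACG stood in 1, H2-Aa, against 20.8%. TGATTGG, a longer form of the Y box that was picked after the promoters had been read, stood in 6, against 7.82%. The windows of H2-DMb1 and H2-DMb2, neighbouring copies, matched at 69 of 80 positions, and other pairs at 20 to 32 of 80. A match says only that the letters are there.

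The difference with the smallest p-value among these genes did not follow genotype or drug but the replicate number in the labels. Within each ApcMin group, arrays numbered 5 to 8 (4 after vehicle and 2 after each drug) were compared with the 4 numbered 1 to 4. The labels name no batch, and wild type has no array above 4. H2-Aa, the alpha chain of the I-A molecule, lay between 9.37 and 10.29 in vehicle arrays 1 to 4 and between 10.75 and 11.17 in vehicle arrays 5 to 8. It lay between 9.33 and 9.64 in naproxen arrays 1 to 4 and at 11.06 and 11.26 in arrays 5 and 6. After ATB-346 it lay between 9.53 and 10.03 in arrays 1 to 4 and at 11.17 and 10.46 in arrays 5 and 6. In each of the 3 groups the numbered ranges did not overlap. Over the 3 groups H2-Aa was higher in arrays 5 to 8 by 1.20 ± 0.13 (SE) on the log2 scale, a ratio of 2.30 (limma adjusted p = 1.12e-07). Of all tested genes 37.1% passed between these ranges, 14.7% higher and 22.4% lower, and 67 had a larger positive difference than H2-Aa.

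The other 9 genes all lay on the other side, lower in arrays 5 to 8 by between -0.15 (H2-DMb1) and -0.45 (H2-Ob). The share of all genes lower at any p was not counted between the ranges, so that count is a description. H2-Ab1, which encodes the beta chain that pairs with H2-Aa, differed by -0.26 (adjusted p = 0.0694), Cd74 by -0.31 (adjusted p = 0.0577) and H2-Eb1 by -0.17 (adjusted p = 0.230). H2-DMa (-0.27, adjusted p = 0.0315), H2-Oa (-0.28, adjusted p = 0.0484) and H2-Ob (-0.45, adjusted p = 0.0283) passed. These 3 calls were fragile: none of them passed without vehicle array 1, 2, 5 or 8, while H2-Aa passed without any single array, at 1.13 to 1.30. Without both vehicle arrays 1 and 2 the difference was 1.34 for H2-Aa (adjusted p = 2.17e-08) and -0.21 for H2-Ob (adjusted p = 0.136). The mean of H2-Oa was then 6.52, under the level for testing, so its call between the ranges is no support either. Each of the 4 probes of H2-Ab1 was lower in arrays 5 to 8, by -0.26 to -0.32, and both probes of Cd74 were, by -0.30. H2-Aa was measured by 1 probe, so no other probe bears on its value.

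The log2 signal of H2-Aa minus that of H2-Ab1 in the same array, which has no meaning as a level but can be followed across arrays, shows the split directly. It lay between -2.07 and -1.25 in the 16 arrays numbered 1 to 4 of all groups, and between -0.39 and 0.10 in the 8 arrays numbered 5 to 8. Within a group and a numbered range, by contrast, H2-Aa varied with the rest. After the mean of each group and range was subtracted, its Pearson correlation with the other 9 genes over the 24 arrays was 0.58 to 0.79 (median 0.73), and the 36 pairs without H2-Aa lay at 0.46 to 0.92 (median 0.68). With nothing subtracted, the H2-Aa pairs lay between -0.15 and 0.12 and the other pairs between 0.65 and 0.96. These correlations describe arrays that were scaled together, and carry no test. What sets the numbered ranges apart was not tested.

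**Figure D1:**
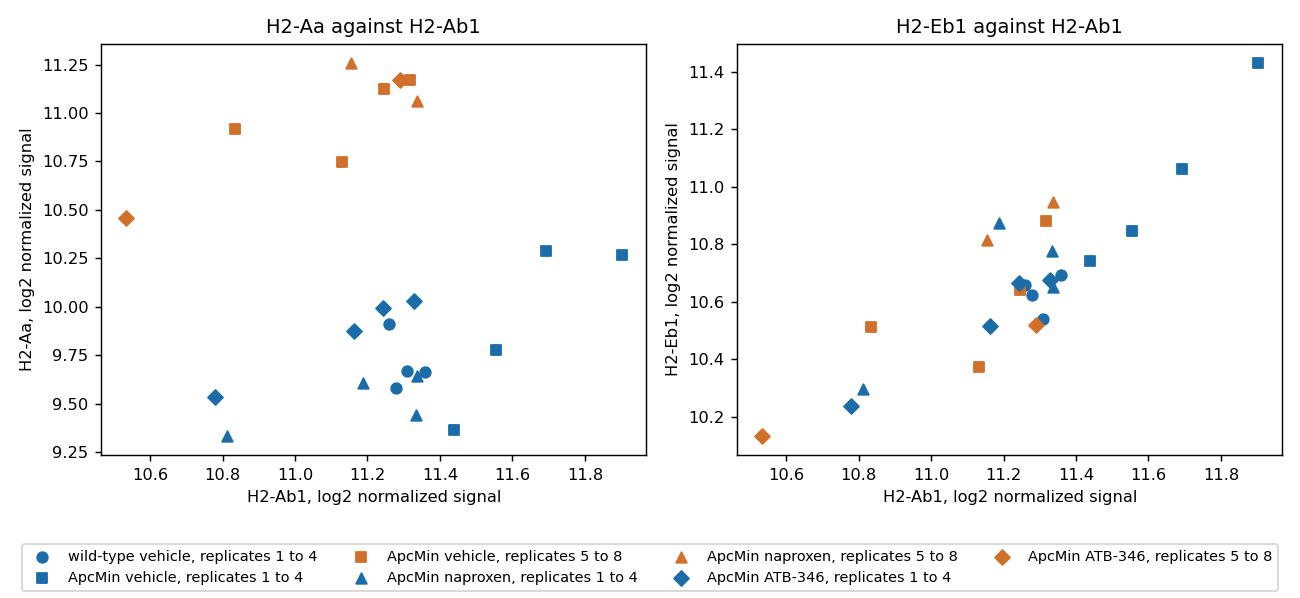
Log2 normalized signal of H2-Aa (left) and H2-Eb1 (right) on the vertical axes against H2-Ab1 on the horizontal axes, 1 point for each of the 24 arrays, with marker shape for group and colour for replicate number. H2-Aa forms 2 clouds, with the 8 arrays numbered 5 to 8 (orange) between 10.46 and 11.26 and the others between 9.33 and 10.29, while H2-Eb1 and H2-Ab1 lie along a single band.

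Vehicle arrays 1 and 2 stood apart in a second way. Their mean over the 10 genes was 9.62 and 9.35, while the other 6 vehicle arrays lay at 8.65 to 9.03, wild type at 8.75 to 8.97, and the treated arrays at 8.48 to 8.93 after naproxen and 8.44 to 8.86 after ATB-346. The mean of the 3 B cell markers above the test level (Cd79b, Fcrla and Pou2af1) was 8.39 and 8.51 in them, with 6.86 to 7.98 for the rest of the vehicle group. Macrophage and monocyte markers (13 genes) were at 8.88 and 8.82, and the rest of the group covered 8.47 to 8.90. The adipocyte mean (3 genes) was at 8.24 and 8.32, below the other vehicle arrays at 8.51 to 11.07. The mean of 12 pancreatic acinar genes was 6.98 in vehicle array 1 and 12.60 in vehicle array 2, with 7.15 to 14.17 in the others. It ranged from 6.88 to 7.47 in wild type, 6.90 to 10.43 after naproxen and 6.87 to 7.13 after ATB-346. The part of these cells in the class II values was not tested. Differences of the 10 genes, the lists and H2-Eb2 from vehicle are given with and without arrays 1 and 2. Since these 2 have the highest class II means, leaving them out must lower the vehicle mean, and the values without them are a description, not a check of stability.

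Among the classical chains, H2-Ab1 was even in wild type, at 11.26, 11.28, 11.31 and 11.36. ApcMin vehicle arrays ran from 10.83 to 11.90 (median 11.38), naproxen arrays from 10.81 to 11.34 (median 11.26) and ATB-346 arrays from 10.53 to 11.33 (median 11.20). The wild-type range lies inside the vehicle range, and the highest 4 vehicle values, 11.44 to 11.90, were those of arrays 1 to 4 and lay above every treated array. H2-Eb1, the beta chain of the I-E molecule, was at 10.66, 10.62, 10.54 and 10.69 in wild type. It ran from 10.37 to 11.43 in vehicle (median 10.79), 10.30 to 10.95 after naproxen (median 10.80) and 10.13 to 10.68 after ATB-346 (median 10.52). All 6 ATB-346 values lay below the vehicle mean of 10.81, yet the ranges overlap. H2-Aa in wild type was at 9.91, 9.58, 9.67 and 9.66. Over arrays 1 to 4 its means ran from 9.51 ± 0.15 (SD) after naproxen through 9.71 ± 0.14 in wild type and 9.86 ± 0.23 after ATB-346 to 9.92 ± 0.44 in vehicle (n = 4 each). Over all arrays, where the numbered ranges widen the SD, wild type was lowest, followed by naproxen (10.06 ± 0.87), ATB-346 (10.18 ± 0.57) and vehicle (10.46 ± 0.65).

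Cd74, which holds and guides the new class II pair, was at 11.99, 12.09, 12.00 and 12.05 in wild type. Vehicle arrays ran from 11.57 to 12.73 (median 11.96), naproxen arrays from 11.53 to 12.21 (median 12.02) and ATB-346 arrays from 11.40 to 12.14 (median 11.89). Vehicle arrays 1, 2 and 3, at 12.73, 12.59 and 12.39, were above every other array. Ciita, the switch of the pathway, was dim, at 7.12, 6.83, 6.60 and 6.83 in wild type. It ran from 6.59 to 7.76 in vehicle (median 6.80), from 6.62 to 6.98 after naproxen (median 6.83) and from 6.36 to 6.83 after ATB-346 (median 6.59). Vehicle array 1, at 7.76, held the top value, and the next was vehicle array 2, at 7.21.

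H2-DMa, the alpha chain of the peptide loader, covered 9.01 to 9.33 in wild type and, in ApcMin mice, 8.95 to 9.83 after vehicle, 9.02 to 9.37 after naproxen and 8.76 to 9.40 after ATB-346. Its partners H2-DMb1 and H2-DMb2 were each measured by 1 probe, and whether a probe also binds the transcript of the other copy was not tested. H2-DMb1 covered 7.99 to 8.41 in wild type, then 7.95 to 8.71 after vehicle, 8.00 to 8.28 after naproxen and 7.60 to 8.33 after ATB-346. H2-DMb2 covered 6.66 to 7.24 in wild type, then 6.28 to 8.10 after vehicle, 6.42 to 6.94 after naproxen and 6.28 to 6.93 after ATB-346. The DO chains, which are largely restricted to B cells and some dendritic cells, were dim. H2-Oa was at 6.91, 6.73, 6.63 and 6.71 in wild type, 6.18 to 7.41 in vehicle (median 6.64), 6.29 to 6.58 after naproxen (median 6.45) and 6.33 to 6.62 after ATB-346 (median 6.45). H2-Ob was at 7.21, 7.08, 6.86 and 6.62 in wild type, 6.39 to 8.01 in vehicle (median 6.79), 6.34 to 6.86 after naproxen (median 6.54) and 6.48 to 6.84 after ATB-346 (median 6.57). For both DO genes vehicle arrays 1 and 2 held the highest values of the series, and the wild-type values lay inside the vehicle range.

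**Figure D2:**
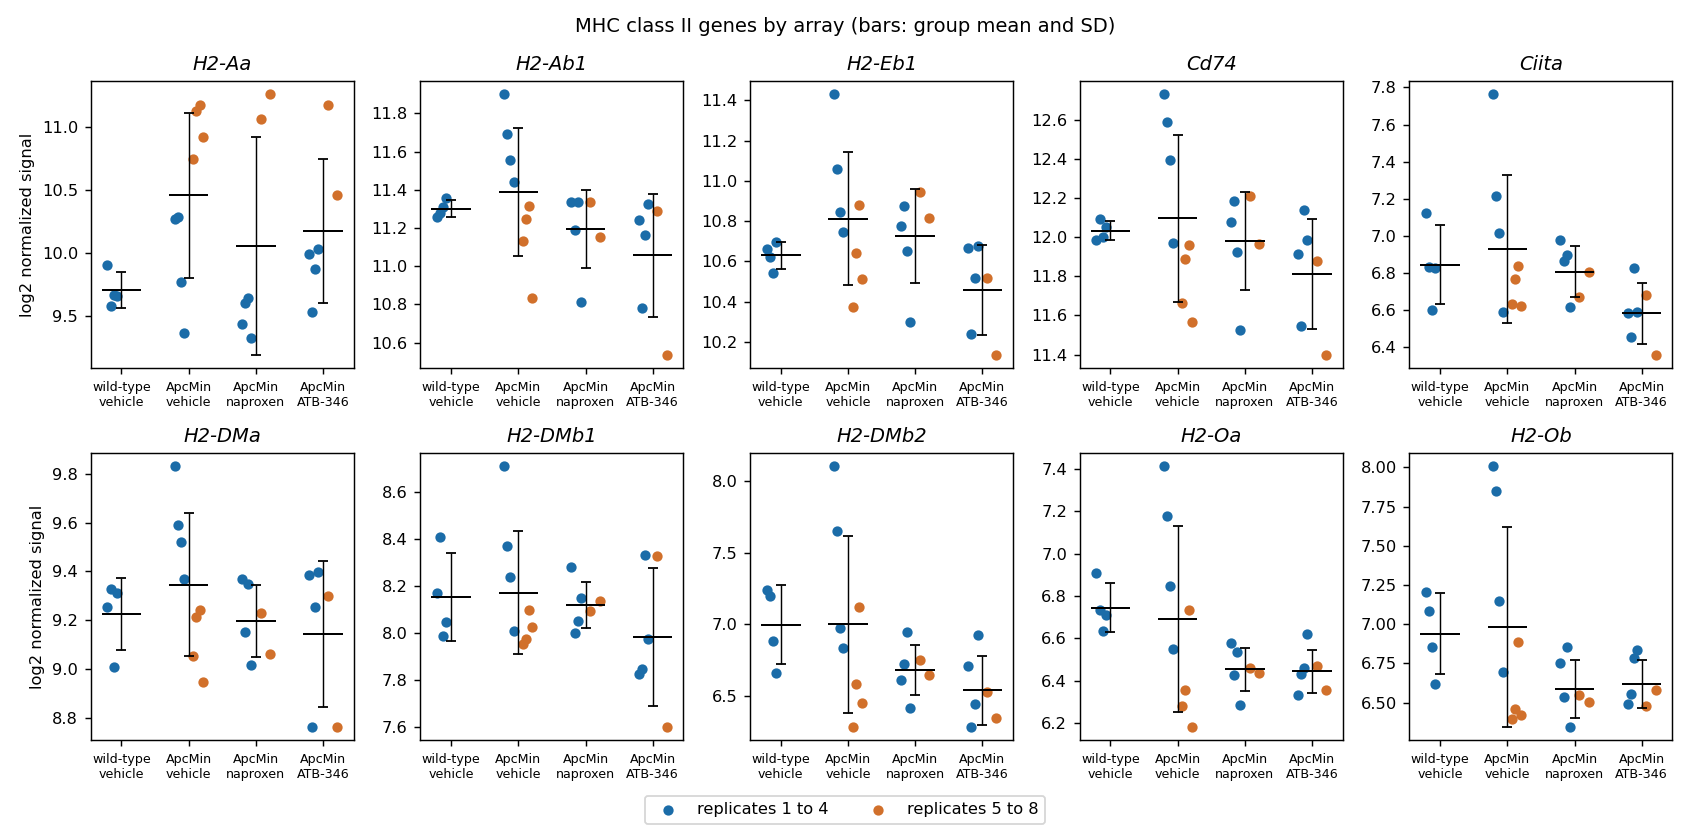
Log2 normalized signal (vertical axes, a scale of its own per panel) of the 10 genes in the 4 groups, 1 point per array, blue for replicates 1 to 4 and orange for 5 to 8, with a bar for the group mean and its SD. H2-Aa splits by replicate number in the 3 ApcMin groups, and in the other panels the highest point is a vehicle array numbered 1.

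ApcMin vehicle against wild type asks what the mutation does without a drug. No class II gene passed, and 9 of 10 were higher, 1 lower (H2-Oa, -0.05), by a median of 0.07. Over all tested genes 0% passed at an adjusted p under 0.05, 582 of 9048 had an unadjusted p under 0.05, 41.1% were higher at any p, 2.01% higher at an unadjusted p under 0.05, and the median was -0.03. H2-Aa had the largest difference, 0.75 ± 0.37 (SE), with an unadjusted p of 0.0561 and an adjusted p of 0.737. The wild-type arrays all belong to the lower numbers, and within arrays 1 to 4 H2-Aa differed by 0.22. Within those arrays the other 9 differed by 0.18 (H2-DMb1) to 0.49 (H2-Ob), with H2-Ab1 at 0.35 ± 0.13 and H2-Eb1 at 0.39 ± 0.15 (limma adjusted p = 0.999 for each). With a term for the numbered range all 10 were higher (45.5% of all genes were), by a median of 0.21 (limma adjusted p = 1.00 for each). Without vehicle arrays 1 and 2 the median was -0.10, and 7 of the 9 genes that had been higher were lower, the exceptions being H2-Aa and H2-Eb1. The share of all genes lower at any p was not counted for that fit.

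ATB-346 against vehicle gave lower values in all 10 genes, and none passed. The differences ran from -0.19 (H2-DMb1) to -0.46 (H2-DMb2), with a median of -0.31, or -19.3%, against a median over all tested genes of 0.01. Of all tested genes 44.6% were lower at any p, 2.41% were lower at an unadjusted p under 0.05, and 0% passed at an adjusted p under 0.05. Among the 10, 4 were lower at an unadjusted p under 0.05. H2-Eb1 differed by -0.35 ± 0.13 (unadjusted p = 0.0138, adjusted p = 0.537) and H2-DMb2 by -0.46 ± 0.21 (unadjusted p = 0.0373, adjusted p = 0.677). The other 2 were Ciita (unadjusted p = 0.0213, adjusted p = 0.590) and H2-Ab1 (unadjusted p = 0.0285, adjusted p = 0.642). All 6 ATB-346 arrays lay below the vehicle mean for 6 genes, H2-Ab1, H2-Eb1, Ciita, H2-DMb2, H2-Oa and H2-Ob, and 5 of 6 did for Cd74. Vehicle arrays 1 and 2 raise that mean, and the share of all genes with such a pattern was not counted, so these counts are descriptions. With the numbered range as a term the median was -0.36, and 8 of the 10 were lower at an unadjusted p under 0.05, against 5.5% of all genes. The 8 include H2-Oa, whose p-values are no support, and the smallest adjusted p was 0.196. In that fit 28 of all genes, 0.309%, passed, and none of the 10 was among them. H2-Aa was then at -0.08, against -0.28 ± 0.33 without the term.

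Without vehicle arrays 1 and 2, the 2 highest, all 10 genes were lower, the median was -0.13 and the smallest unadjusted p was 0.0796, that of H2-Eb1 at -0.21. H2-Ab1 was then at -0.20, Cd74 at -0.10 and H2-Ob at -0.05. Without both and with the numbered range as a term the median was -0.15. Within arrays 1 to 4 the median was -0.52, and within arrays 5 to 8, with 2 treated arrays, it was -0.15, with 9 of 10 lower. For these subsets of arrays the share of all genes lower at any p was not counted, so the counts are descriptions. H2-Oa was at -0.54 in the first range and 0.03 in the second, and H2-Ob at -0.76 and -0.01. The contrast between ranges had an unadjusted p of 0.0206 for H2-Oa and 0.0382 for H2-Ob, with 1.58% of all genes higher in the second range at an unadjusted p under 0.05, and an adjusted p of 1.00 for both. The p-value of H2-Oa is no support, as in its other comparisons. Acinar genes, the list that differed most between these groups, were lower after ATB-346 in 12 of 12, by a median of -3.13, and their part in the class II difference was not tested.

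Naproxen against vehicle also gave lower values in all 10 genes with none passing, by a median of -0.17. This comparison and the last share the vehicle arrays, so their likeness is no separate evidence. Of all tested genes 46.5% were lower at any p and 2.91% were lower at an unadjusted p under 0.05, and 0% passed at an adjusted p under 0.05. Among the class II genes, 0 reached an unadjusted p under 0.05, over all genes 790 did, and the smallest adjusted p of a member was 0.600, for H2-Ob at -0.39 ± 0.21. H2-Oa differed by -0.24 ± 0.14, H2-Ab1 by -0.20 ± 0.14 and H2-Eb1 by -0.08 ± 0.13. The 4 probes of H2-Ab1 were uneven in this comparison, at -0.05, -0.08, -0.22 and -0.39. With the numbered range as a term H2-Ob (-0.47) and H2-Oa (-0.29) had an unadjusted p of 0.0183 and 0.0348, where 5.67% of all genes were lower at an unadjusted p under 0.05, and H2-Oa had passed the level for testing only narrowly.

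The naproxen difference was also taken within each numbered range, and the first range holds vehicle arrays 1 and 2. Within arrays 1 to 4 all 10 genes were lower, by -0.21 (H2-DMb1) to -0.80 (H2-Ob) and a median of -0.45. Within arrays 5 to 8, with 2 treated arrays, 9 of 10 were higher and the median was 0.10. The share of all genes in each direction was not counted within a range, so these counts are descriptions. Cd74 was at -0.49 in the first range and 0.32 in the second, a gap of 0.81 ± 0.26 with an unadjusted p of 0.00534. H2-Eb1 was at -0.37 and 0.28, and H2-Ab1 at -0.48 and 0.11. Of the 10 genes 6 differed between ranges at an unadjusted p under 0.05, all higher in the second, against 2.08% of all genes. The 6 include H2-Oa, whose p-values are no support. The adjusted p over all genes was 1.00 for each, and 0 of 9048 genes passed. Without vehicle arrays 1 and 2 the pooled median was -0.03, and Cd74, H2-Eb1, Ciita and H2-DMb1 were at 0.06 to 0.07.

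**Figure D3:**
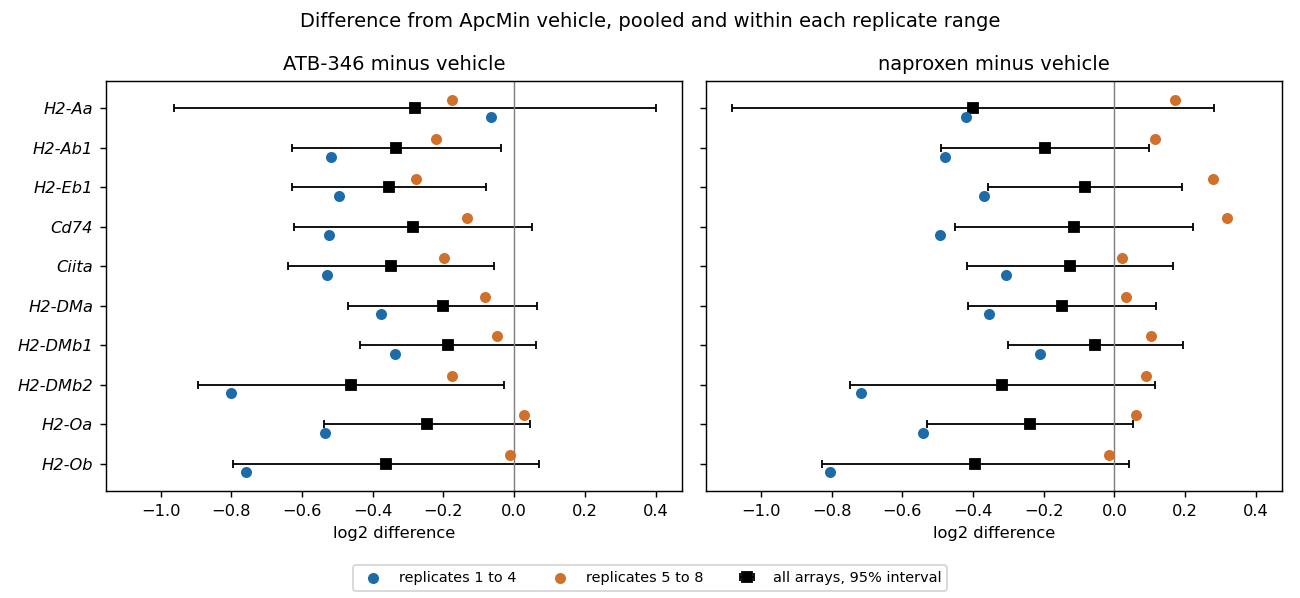
Log2 difference from ApcMin vehicle (horizontal axes) of the 10 genes for ATB-346 (left) and naproxen (right), with black squares and bars for all arrays and their 95% interval, blue points for replicates 1 to 4 alone and orange points for 5 to 8 alone. After ATB-346 the orange points run from -0.28 to 0.03, after naproxen from -0.02 to 0.32, and all blue points are below 0 in both panels.

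ATB-346 against naproxen, free of the vehicle arrays but at doses unequal by weight, gave 8 genes lower, 2 higher (H2-Aa at 0.12 and H2-Ob at 0.03) and none passing, by a median of -0.14. Of all tested genes 3.43% were lower at an unadjusted p under 0.05, 48.8% were lower and 51.2% higher at any p, and 0% passed at an adjusted p under 0.05. None of the 10 reached an unadjusted p under 0.05, while 586 of all genes did. H2-Eb1 came nearest, at -0.27 ± 0.14 with a 95% interval of -0.56 to 0.02 and all 6 ATB-346 arrays below the naproxen mean (limma adjusted p = 0.786). With vehicle arrays 1 and 2 left out of the shared spread, which leaves the differences unchanged, the unadjusted p was 0.0270 for H2-Eb1 and 0.0296 for Ciita, with an adjusted p of 0.753 for each. In that fit 3.43% of all genes were lower at an unadjusted p under 0.05. Those arrays have the highest class II means, so the smaller p-values without them are no support. For Cd74 the difference was -0.17, with an interval of -0.53 to 0.19, and for Ciita it was -0.22, with an interval of -0.54 to 0.09. The intervals include no difference, and they also include differences as large as those from vehicle. Within arrays 1 to 4 the median was -0.04 and within arrays 5 to 8 it was -0.24. H2-Aa was at 0.35 in the first and -0.35 in the second, with an unadjusted p of 0.0380 for that gap. Lower in the second range at an unadjusted p under 0.05 were 4.76% of all genes, and the adjusted p of H2-Aa was 0.602.

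Other genes of the class II pathway gave a mixed picture. Of 19 listed genes 18 had a target on the array and 10 were tested. Against vehicle, ATB-346 gave 6 higher and 4 lower, with a median of 0.01 and none passing. H2-Eb2, a relative of H2-Eb1, had a mean of 6.56, just over the level for testing, and lay below that level in 6 of 6 naproxen arrays and 5 of 6 ATB-346 arrays. It was at -0.28 ± 0.13 after ATB-346 and -0.31 ± 0.13 after naproxen, and its highest values, 7.42 and 7.11, were those of vehicle arrays 1 and 2. Without those arrays it was at -0.10 and -0.13, and its p-values are no support, since it passed through the group where it was high. Whether its probe also binds H2-Eb1 transcripts was not tested. Nfyc, a subunit of NF-Y, was higher by 0.19 ± 0.08 after ATB-346 (unadjusted p = 0.0217, adjusted p = 0.594). Lgmn, a lysosomal protease, was at -0.15 after ATB-346 and 0.23 after naproxen, and at -0.38 between the drugs (unadjusted p = 0.0145, adjusted p = 0.728). Ctss, the cathepsin that trims the invariant chain, differed by 0.03 ± 0.40 after ATB-346. The RFX subunits Rfx5 and Rfxank and the NF-Y subunit Nfya lay below the level for testing. Without vehicle arrays 1 and 2, a setting added for these lists after the data had been seen, the median after ATB-346 was -0.00075, with 5 of 10 lower. With wild type as the reference, the vehicle arrays had 5 of the 10 higher and 5 lower.

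Interferon gamma signalling and MHC class I genes, the neighbouring programmes, had no gene passing in any comparison. Of 10 tested interferon gamma genes 9 were lower after ATB-346, by a median of -0.08 and none at an unadjusted p under 0.05, and Ifng itself was below the level for testing. Of all tested genes 44.6% were lower at any p. With the numbered range as a term 7 of the 10 were lower, 0 of them at an unadjusted p under 0.05, and 1 was higher at that level. Jak2, a kinase of the interferon gamma receptor, was higher in vehicle than in wild type by 0.19 ± 0.05 (unadjusted p = 0.00229, adjusted p = 0.737). Ifngr2, a chain of that receptor, was lower after naproxen by -0.23 ± 0.08 (unadjusted p = 0.00946, adjusted p = 0.534). Of 12 tested class I genes 11 were lower after ATB-346, by a median of -0.15, with Tapbp, which links the peptide transporter to class I molecules, at -0.30 ± 0.11 (unadjusted p = 0.0106, adjusted p = 0.502). With the numbered range as a term 12 of 12 class I genes were lower, 4 at an unadjusted p under 0.05, where 5.5% of all genes were. After naproxen 7 of the 12 were lower, by a median of -0.02. Tap2, of the peptide transporter, was at -0.20 after ATB-346 and 0.02 after naproxen, and Psmb8, of the immunoproteasome, at -0.21 and -0.11. When vehicle arrays 1 and 2 were left out, the medians after ATB-346 were -0.13 for class I genes, with Tapbp at -0.26, and -0.10 for interferon gamma genes, and those after naproxen were 0.01 and -0.11.

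Markers of cells that can carry class II are given next. Of 13 tested macrophage and monocyte markers 11 were lower after ATB-346, by a median of -0.23 and 4 of them at an unadjusted p under 0.05 (Ly86, Aif1, C1qa and Cx3cr1), where 2.41% of all genes were. With the numbered range as a term 11 of 13 were lower, 8 at an unadjusted p under 0.05, where 5.5% of all genes were. In that fit 1 marker was higher at that level. What part these cells have in the class II values was not tested. The brightest, Lyz2, C1qb and C1qc, differed by -0.35 ± 0.19, -0.23 ± 0.13 and -0.20 ± 0.11. The 3 tested B cell markers were lower after both drugs, Cd79b of the B cell receptor by -0.55 ± 0.31 after ATB-346 (unadjusted p = 0.0898), while Ms4a1 and Pax5 were among those below the level for testing. With vehicle arrays 1 and 2 left out, Cd79b was at -0.11 ± 0.21 after ATB-346 and -0.14 ± 0.21 after naproxen. The macrophage and monocyte median after ATB-346 was then -0.17, with 12 of 13 lower and 2 at an unadjusted p under 0.05 (Ly86 and Aif1), where 1.69% of all genes were. Of dendritic cell markers Irf8 and Batf3 were tested and the others, Itgax and Flt3 among them, were too dim. Of 5 tested T cell markers 4 were lower after ATB-346, by a median of -0.06. Colon epithelial markers, 9 tested, had 5 lower after ATB-346, by a median of -0.05, with the abundant Guca2a at 0.01 and Krt8 at 0.04.

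Array by array, with the means of group and numbered range subtracted, the mean of the 10 genes had a Pearson r of 0.78 (Spearman rho 0.73) with the B cell mean and of 0.70 (rho 0.73) with the macrophage and monocyte mean over 24 arrays. Without vehicle arrays 4 and 1, the farthest from the median, r was 0.65 and 0.69. For the other class II pathway genes r was 0.69 (0.65 without these arrays), for MHC class I 0.30 (0.42), for interferon gamma signalling 0.18 (0.09) and for T cells 0.16 (0.32). For dendritic cells it was 0.16 (0.19), for plasma cells 0.11 (0.03) and for acinar genes 0.17 (0.40). With adipocytes it was -0.20 and, without these arrays, 0.32, and with colon epithelium 0.01 and -0.35, so those signs rest on the 2 arrays. The single genes differed in which list they followed. H2-Ob (0.90) and H2-Oa (0.82) had the highest r with B cells, followed by Ciita and H2-DMb2 at 0.74, and H2-Ab1 (0.45), H2-DMb1 (0.47) and H2-DMa (0.48) the lowest. With macrophages the order was otherwise, from 0.43 for Ciita to 0.70 for H2-DMa and 0.71 for H2-Ab1. These 11 lists were set against the same arrays, which share scaling and tissue sampling, and the values are descriptions.

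**Figure D4:**
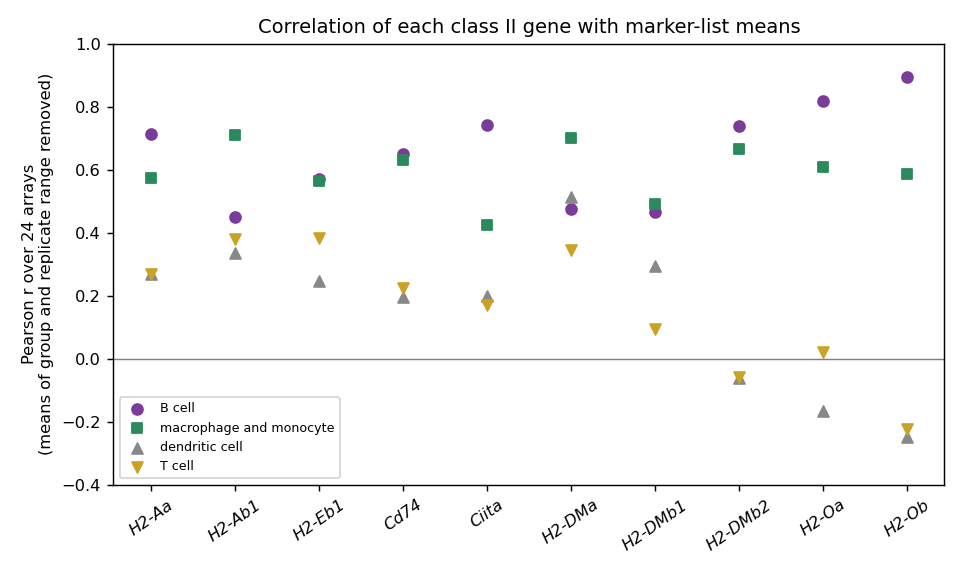
Pearson r over 24 arrays (vertical axis, means of group and replicate range removed) of each class II gene (horizontal axis) with the mean of the B cell, macrophage and monocyte, dendritic cell and T cell markers. The B cell points are highest at H2-Oa and H2-Ob, 0.82 and 0.90, where the dendritic cell points are at -0.17 and -0.25.

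Ranked by the same correlation with the mean of the 10 genes, the 8 most alike of 7886 named genes were led by Coro1a, an actin-binding protein of leukocytes (r = 0.93), and Klhl6, with a role in B cell signalling (0.92). Next came Ncf4, of the phagocyte NADPH oxidase (0.88), Cd52, a surface glycoprotein of lymphocytes (0.87), Lpxn, Gpr18 and Napsa (0.86 each) and Laptm5, a lysosomal membrane protein of blood cells (0.86). Without vehicle arrays 1 and 2 their r was 0.81 to 0.91. After ATB-346 all 8 were lower, from -0.10 (Lpxn) to -0.52 (Cd52), with Coro1a at -0.44 (unadjusted p = 0.00956, adjusted p = 0.486). Likeness to the class II mean fixes much of that direction, so it is not support for it.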

How the data were processed

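Total RNA of mouse colon was converted to biotin-labelled cRNA and hybridised to 24 single-colour Illumina arrays, per the labels' protocols. The deposited gene table holds average bead intensity per target on a linear scale, made by the authors with GenomeStudio 1.7.0 and not normalized, per the file headers. Background subtraction was not given in the sources used here. A deposited table of 25697 probes holds intensity of the same arrays and served as an alternative. The raw median of an array lay between 81.4 and 102.9, with all groups overlapping, and precision is limited by how many arrays there are.

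Intensities were background-corrected with normexp (offset 50), quantile-normalized and set to log2. Targets whose mean exceeded the median mean (6.54) were tested. A linear model of the 24 arrays had 1 coefficient for each group (limma 3.58.1 in R 4.3.3, moderated by eBayes), with Benjamini-Hochberg adjustment over the 9048 tested targets and a threshold of 0.05. Unadjusted p-values are from the same fit, SEs and 95% intervals too, and SDs are between arrays of a group. The offset draws differences of dim genes towards 0, and quantile normalization hides a change in total RNA. Over all pairs of arrays the smallest SD of the log2 difference was 0.177. No known repeat gave a level to compare it with, so whether any pair shared an animal was not settled.

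The members and the lists were chosen with earlier results of these data known, and counts over them are descriptions. Named were all members, called genes of 3 related pathway lists or else up to 3 with the smallest p, up to 3 markers with the highest mean of each cell type, and the 8 genes most like the members' mean. Ly86, Aif1, C1qa, Cx3cr1, Ctss and the markers below the test level were named after their values were seen. Of 145 list entries 136 matched a target. Alternatives were the background correction, offset 16, 2 other scalings, no filter, the probe table, another variance model, only the groups compared, the numbered range or the replicate number as a term, each range alone, and arrays left out.

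No label says what the replicate number marks. Between wild type and vehicle the deviations of same-numbered arrays correlated at 0.12 to 0.67, all 4 over 0.1. In each of the other 3 comparisons at least 1 pair was under 0.1, though naproxen and vehicle reached 0.69. Differently numbered arrays were not set against each other, so these values do not settle whether equal numbers mark pairs. Promoter sequences are from RefSeq (GRCm38.p6), with the promoters of H2-Ab1, Cd74 and Ciita not analysed here.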

Additional observations from a re-analysis of the deposited data

Results flagged for a closer look

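Of 40 sets of values (10 genes in 4 groups), 1 held an array far from the others of its group: H2-Ab1 in ApcMin naproxen array 4 was at 10.81, with the next array at 11.16 and the highest at 11.34 (n = 6). Its gap to the next array was 0.654 of the range of the group, above the 0.625 at which a value of 6 is set apart. Chance alone sets apart about 1 in 20 groups.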

How the results depend on the processing

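In the 4 group comparisons no class II gene passed under any alternative run. For ATB-346 minus vehicle, 378 of 380 values kept their direction, the exceptions being H2-Oa at 0.026 in arrays 5 to 8 alone and H2-Aa at 0.11 without vehicle arrays 1 and 2 and with the numbered range as a term. The combinations that leave out arrays 1 and 2 and add a term, and all alternatives for the difference between numbered ranges, were chosen after seeing the data. Dim genes (Ciita, H2-Oa, H2-Ob, H2-DMb2) lie near background, where small changes are hard to see. The causes of the changes below were not tested.

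Over all genes, ATB-346 minus vehicle gave 28 calls with the numbered range as a term, 16 in arrays 1 to 4 alone, 5 without vehicle arrays 1 and 2 with that term, and 6 when the replicate number was the block. That block left the other comparisons at 0 calls, and no call among the members changed. With the replicate number as the block, H2-Oa in ApcMin vehicle minus wild type moved to 0.11. With the numbered range H2-Oa was at 0.086, and in arrays 1 to 4 alone at 0.25, where the members' median was 0.35 for genotype and -0.45 for naproxen. In arrays 5 to 8 alone the naproxen median was 0.10, with H2-Aa at 0.17, H2-Ab1 0.11, H2-Eb1 0.28, Cd74 0.32, Ciita 0.023, H2-DMa 0.032, H2-DMb1 0.10, H2-DMb2 0.090 and H2-Oa 0.060, and ATB-346 minus naproxen was -0.35 for H2-Aa. For genotype, H2-DMb2 was -0.039 with offset 16 and -0.0059 with the probe table. For ATB-346 minus naproxen, H2-Oa was 0.0016 with cyclic loess, 0.0034 with median scaling and 0.0050 in arrays 1 to 4 alone.

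Without vehicle arrays 1 and 2, genotype differences were -0.047 for H2-Ab1, -0.13 for Cd74, -0.10 for Ciita, -0.0017 for H2-DMa, -0.10 for H2-DMb1, -0.29 for H2-DMb2 and -0.27 for H2-Ob, and naproxen differences were 0.061 for H2-Eb1, 0.073 for Cd74, 0.061 for Ciita and 0.069 for H2-DMb1. With the numbered range as a term as well, genotype differences were -0.086 for H2-Aa, -0.012 for Cd74, -0.038 for Ciita, -0.071 for H2-DMb1, -0.19 for H2-DMb2 and -0.14 for H2-Ob, and naproxen differences were 0.043 for H2-Eb1, 0.016 for Cd74, 0.030 for Ciita and 0.052 for H2-DMb1.

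Between the numbered ranges, 2 members passed with cyclic loess, which called 2528 genes, and 2 with median scaling, which called 2078 genes. Without vehicle arrays 1 and 2, 1 member passed and 2704 genes did. In the main fit 37.1% of all tested genes passed, so these counts of members are descriptions. Vehicle arrays alone gave 1548 genes and a members' median of -0.49. Leaving out 1 array at a time gave 1 to 6 members and 2924 to 3388 genes.

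Leaving out 1 array at a time gave 0 to 1 genes called for ATB-346 minus vehicle, naproxen minus vehicle and ATB-346 minus naproxen. Genotype differences ran from -0.029 to 0.14 for Cd74, -0.033 to 0.18 for Ciita, -0.058 to 0.10 for H2-DMb1, -0.15 to 0.11 for H2-DMb2, -0.16 to 0.021 for H2-Oa and -0.10 to 0.13 for H2-Ob, each lowest without vehicle array 1. Naproxen differences ran from -0.15 to 0.0042 for H2-Eb1 and -0.087 to 0.023 for H2-DMb1. ATB-346 minus naproxen ran from -0.079 to 0.36 for H2-Aa, -0.10 to 0.023 for H2-DMa, -0.043 to 0.017 for H2-Oa and -0.018 to 0.085 for H2-Ob.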
